A study of Mus musculus with 227 samples.

Results

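The angiotensin-converting enzyme (ACE) inhibitors and the angiotensin receptor blockers made up 9 of the 218 drugs in a transcriptome screen of mouse cortical cultures. Members were chosen by the drug named in the sample labels and not by any measured value. The ACE inhibitors were Captopril, Fosinopril·Na, Enalapril, Lisinopril·2H2O, Ramipril and Perindopril Erbumine, 6 libraries. The receptor blockers were Losartan Potassium, Telmisartan and Irbesartan, 3 libraries. They were compared with the 9 libraries from vehicle cultures, and every drug of the screen had 1 library.

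The cultures were primary cells dissociated from cerebral cortex at embryonic day 16.5, from first-generation embryos of FVB/N mothers and C3B6F1 fathers. They were kept for 21 days in vitro and then exposed for 8 hours to 1 drug or to vehicle (0.2% DMSO). All groups shared this strain, age and medium, and the labels give no engineered allele. Each drug was applied to 1 culture only, so the different drugs of a class stand as its replicates here. Concentrations are not in the labels. Whether the drugs were given at matched doses is therefore unknown, and every comparison below is between libraries as they were treated. Nothing says that the vehicle libraries came from separate culture preparations, so p-values measure only the spread between these libraries.

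In the renin-angiotensin system, the protease renin cuts angiotensinogen into angiotensin I, and ACE trims this to angiotensin II, a peptide that acts on the AT1 and AT2 receptors. ACE also breaks down bradykinin and other small peptides. ACE inhibitors block the enzyme, while the sartans occupy the AT1 receptor and leave the enzyme alone, and both classes are used to lower blood pressure. The ACE inhibitors differ in the group that binds the enzyme's zinc: Captopril carries a thiol, Fosinopril a phosphinate, and the others a carboxylate. Captopril and Lisinopril act as given, whereas Fosinopril, Enalapril, Ramipril and Perindopril are ester prodrugs. Among the blockers, Losartan and Irbesartan carry a biphenyl tetrazole, where Telmisartan has a carboxylic acid and benzimidazoles. Telmisartan is also known as a partial agonist of the nuclear receptor PPARγ.

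Library totals were 34.8 to 47 mega-counts (M) for the 9 drugs and 31.4 to 43.8 M for the vehicles, and mitochondrial genes took 3.1 to 4.3% of counts. The libraries came from several sequencing runs, told apart by a run code in the labels. Captopril, Fosinopril, Ramipril and Telmisartan shared run code HI.3147 with vehicles 8 and 9. Enalapril and Lisinopril shared HI.3146 with vehicles 2 and 3, Perindopril shared HI.3078 with vehicle 5, and Irbesartan shared HI.3145 with vehicle 4. Losartan came from run code HI.3254, which held 8 libraries and no vehicle. Within-run values are therefore given as the distance of a library from the median of all libraries of its run code, most of which were treated with other drugs. The summed counts per M counted reads (CPM) of 8 neuron markers were 5230 to 7300 in the vehicles, and those of 8 astrocyte markers 5830 to 7510. The 6 microglia markers together reached 3.31 to 17.9 CPM and the 6 endothelial markers 2.96 to 5.67 CPM. The endothelial marker Cldn5 had 0 reads in all 18 libraries compared.

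The genes for the upstream part of the pathway were present at low to moderate levels. Agt (chr8:124556534-124569706 in mm10), which encodes angiotensinogen and is mainly an astrocyte product in brain, had 1.47 ± 0.448 reads per kilobase and M counted reads (RPKM; SD, n = 9) in the vehicles. It had 1.75 ± 0.695 RPKM with the ACE inhibitors (n = 6) and 1.6 ± 0.26 with the receptor blockers (n = 3). Enalapril and Lisinopril, of the same run, had 5.2 and 5.1 CPM of Agt. Both were above the vehicle maximum of 4.07 CPM, while the other ACE inhibitors had 2.3 to 2.7 CPM. Ren1, the renin gene (chr1:133350510-133360325), had 11 reads in all 9 vehicle libraries together, 11 with the ACE inhibitors and 4 with the blockers.

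Ace (chr11:105967945-105989964), the target of the ACE inhibitors, had 2.3 ± 0.49 RPKM in the vehicles (n = 9), which is close to the middle of all genes with a read there (percentile 50.3). Its counts were 12.2 CPM with Captopril, 13.3 with Fosinopril, 15.4 with Ramipril, 14.7 with Enalapril, 15.4 with Lisinopril and 8.3 with Perindopril. Losartan had 12.6 CPM of Ace, Telmisartan 10.7 and Irbesartan 8.69. The vehicles spanned 7.94 to 15.2 CPM with a median of 11.7. The groups overlapped throughout, and Perindopril and Irbesartan lay near the low end of the vehicles. The difference between ACE inhibitors and vehicles was 0.19 ± 0.16 on the log2 scale (SE), with a 95% interval of -0.15 to 0.52. Between receptor blockers and vehicles it was -0.12.

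The targets of the sartans were barely detected. Agtr1a (chr13:30336441-30382867), the main gene for the AT1 receptor in rodents, had 18 reads among 333.2 M in the 9 vehicles, which is 0.054 reads per M with a 95% exact Poisson interval of 0.032 to 0.0854. It had 14 reads among 243.1 M with the ACE inhibitors and 4 among 112.3 M with the blockers. Agtr1b (chr3:20314473-20367177) had 13, 6 and 1 reads in the same order. Agtr2 (chrX:21484544-21489164), the AT2 receptor gene, had 77, 37 and 19 reads. No single library of the 18 had more than 5 reads of Agtr1a, and these intervals cover counting error only. Over all libraries of the screen Agtr1a had 591 reads, so few reads were also found with the other drugs. These are levels in bulk RNA, where fewer cells of a type and less RNA per cell cannot be told apart.

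Other parts of the pathway were better covered. Mas1 (chr17:12841079-12868143), the receptor for angiotensin 1-7, had 5.5 ± 2.4 RPKM in the vehicles. Its counts were 12.1 CPM with Losartan, 8.26 with Telmisartan and 5.9 with Irbesartan, against 5.97 to 21.8 in the vehicles (median 10.7) and 8.27 to 20.6 with the ACE inhibitors (median 13.7). Irbesartan was thus just below the lowest vehicle, but it lay at its run median (a log2 distance of 0.000174). Atp6ap2, the prorenin receptor and a subunit accessory to the vacuolar proton pump, was the most abundant of these genes at 109 ± 7.28 RPKM. Mrgprd, a receptor for the related peptide alamandine, had 35 reads in all libraries of the screen together.

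**Figure D1:**
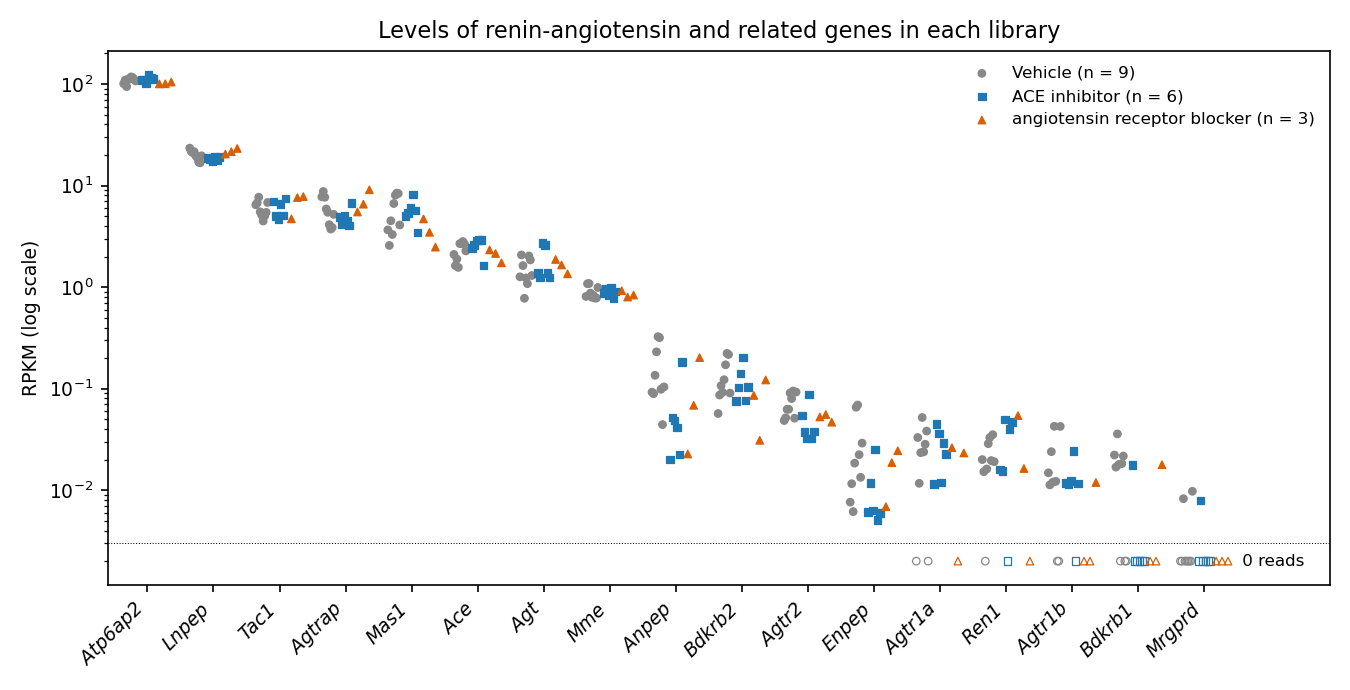
RPKM (log scale) of genes of the renin-angiotensin and kinin systems in each of the 18 libraries, by group; open symbols on the bottom row are libraries without a read. Atp6ap2 averaged 109 RPKM in the vehicles and Agtr1a 0.0234, and the 3 groups overlap for each gene drawn except that all 3 receptor blockers were above all 6 ACE inhibitors for Lnpep.

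No gene of the pathway passed the test in any of the 3 class comparisons. The test was edgeR's quasi-likelihood test over 15097 genes with Benjamini-Hochberg adjustment, and an adjusted p under 0.05 counted as passed. In the list of 12 core genes, 6 had enough reads to be tested. Their median log2 difference was 0.04 for ACE inhibitors against vehicles, -0.10 for blockers against vehicles and 0.12 for ACE inhibitors against blockers. The medians of all genes tested were -0.01, -0.00018 and -0.01. Agtrap, which encodes a protein that draws the AT1 receptor into the cell, had 16.7 to 26.8 CPM with the ACE inhibitors (median 19.1), and 23.4, 25.7 and 35.7 with Losartan, Telmisartan and Irbesartan. The vehicles spanned 15.9 to 33.4 CPM. The classes overlapped, since Perindopril, at 26.8 CPM, was above Losartan and Telmisartan. The log2 difference between the classes was -0.52 ± 0.23, with an adjusted p of 0.361 by edgeR.

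Among 14 peptidases that process angiotensins, 11 were tested and none passed. Lnpep, the insulin-regulated aminopeptidase that binds angiotensin IV, had 91 to 103 CPM with the ACE inhibitors and 110 to 118 with the blockers. The vehicles ran from 90.4 to 118 CPM and overlapped both classes, although the classes did not overlap each other. The difference between classes was -0.25 ± 0.071 on the log2 scale. Within the run that held both classes, Captopril, Fosinopril and Ramipril had 95.3, 94 and 93.7 CPM and Telmisartan 110, while vehicles 8 and 9 had 90.4 and 102. Anpep, an aminopeptidase of vessels and fibroblasts, had a log2 difference of -1.39 ± 0.55 for ACE inhibitors against vehicles, from 3 to 28 reads a library against 6 to 54. Enpep, which makes angiotensin III, had 1 to 12 reads a library and was not tested. Mme, or neprilysin, which cuts many of these peptides, differed by 0.0048 with a 95% interval of -0.17 to 0.18.

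ACE also degrades kinins and tachykinins. Of 16 genes for such substrates, their receptors and related peptidases 10 were tested, and none passed. The tachykinin gene Tac2 had the lowest p of the list in each class comparison, and its values are given below. Bdkrb2, the main bradykinin receptor, had 72 reads in the vehicles, 47 with the ACE inhibitors and 15 with the blockers, while Bdkrb1 had 7, 1 and 1. Tac1, the substance P precursor, had 5.8 to 9.09 CPM with the ACE inhibitors against 5.54 to 9.23 in the vehicles, and overlapped fully.

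**Figure D2:**
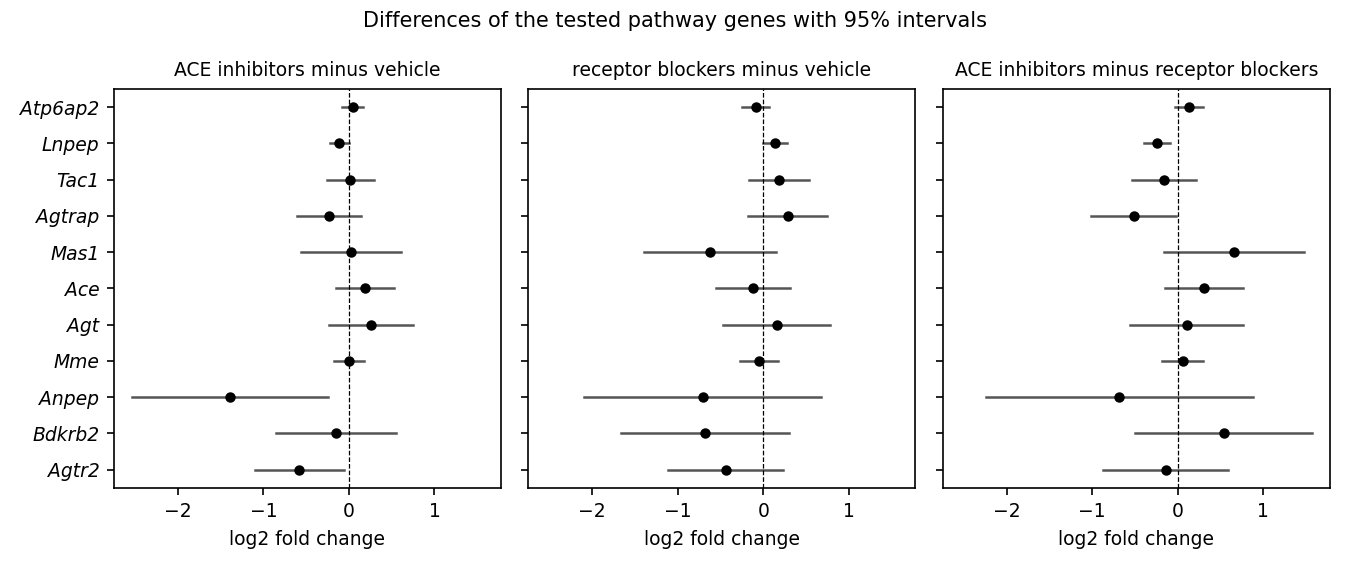
Log2 fold changes of the 11 tested pathway genes with 95% intervals from the edgeR fit, for ACE inhibitors minus vehicle, receptor blockers minus vehicle, and ACE inhibitors minus receptor blockers. The intervals for Mme against vehicle are narrow (-0.17 to 0.18 with the ACE inhibitors), and that for Anpep is the widest in each panel.

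Across all genes, the ACE inhibitors as a class had 0 of 15097 genes past the threshold (0%) against vehicle, with 0 also by DESeq2. At an unadjusted p under 0.05, 153 genes were higher (1.01%) and 320 lower (2.1%). The lowest adjusted p was 0.971 by edgeR. The 95% interval reached a median of 0.174 log2 units to each side of the estimate, and for 95.5% of genes it lay within 1 log2 unit of 0. On simulated data with these library sizes the same test recovered 88.1% of genes given a log2 change of 1 and 56.7% of those given 0.5. Whether these rates hold for the real libraries, which came from several runs, was not tested. In the real data Lox, described below, differed by -1.03 with an adjusted p of 0.971 by edgeR.

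The genes with the lowest unadjusted p at a mean of 1 CPM or more give the size of what was seen. On the higher side were Msra, which repairs oxidised methionine, with 16.7 to 18.1 CPM against 12.7 to 17.1 in the vehicles (log2 difference 0.19), and the mitochondrial ribosomal gene Mrps27, with 22 to 24.2 against 20.3 to 22.1 (0.12). Mad2l1bp, a mitotic checkpoint regulator, differed by 0.15 and Gm17586 by 0.18. On the lower side, the long non-coding RNA Dleu2 had 2.82 to 4.01 CPM against 3.8 to 5 (-0.38). The myo-inositol transporter Slc5a3 had 45 to 63.5 against 50.9 to 89.5 (-0.41), and the collagen cross-linking enzyme Lox 1.2 to 2.7 against 1.55 to 8.01 (-1.03). Mybbp1a differed by -0.14 and 2810004N23Rik by -0.14. For each of these genes the ranges of the ACE inhibitors and of the vehicles overlapped. The signal transducer Stat6 had the lowest p of all (log2 difference -0.81) at 0.329 to 0.533 CPM against 0.525 to 0.99, and was named after its values were seen.

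Against vehicle, the receptor blockers also had 0 genes past the threshold (0%), and 0 by DESeq2. At an unadjusted p under 0.05, 245 were higher (1.6%) and 238 lower (1.58%), and the lowest adjusted p was 0.672 by edgeR. The intervals reached a median of 0.22 to each side, and 90.5% of the intervals lay within 1 log2 unit of 0. Among the named genes that were higher, the guanine exchange factor gene Arhgef33 had 1.8 to 2.3 CPM against 0.76 to 1.9 (0.73). D17H6S53E differed by 0.26, Mkln1os by 0.26, the alanine aminotransferase gene Gpt by 0.25 and Dpy30, of the histone H3K4 methyltransferase complexes, by 0.16. Mkln1os is an antisense transcript. The library kit keeps strand, but the sources used here do not say whether counting used it.

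On the lower side, Vip, the vasoactive intestinal peptide of a class of cortical interneurons and a vasodilator, had 20.9 CPM with Losartan, 14.2 with Telmisartan and 11.3 with Irbesartan. It had 17.2 to 36.5 in the vehicles (median 22.7) and 23 to 30.2 with the ACE inhibitors. Telmisartan and Irbesartan were below every vehicle, and Losartan was not. Tac2, the neurokinin B precursor, had 4.99, 3.3 and 2.69 CPM in the same order against 4.3 to 8.13 in the vehicles. Npas1, a transcription factor of interneurons, had 3.95, 2.79 and 1.68 against 3.4 to 5.33. The log2 differences were -0.69 ± 0.21 for Vip, -0.60 ± 0.20 for Tac2 and -0.65 for Npas1, each with an adjusted p of 0.672 by edgeR. With 1 library left out at a time, the value for Npas1 ran from -0.973 to -0.387, the latter without Irbesartan. Mc4r, the melanocortin receptor, differed by -0.40 and Gemin6, of the complex that assembles splicing particles, by -0.38. The fixed list of 6 inhibitory neuron markers had a median of 0.13 for the same comparison, with a summed 1690 to 1820 CPM against 1440 to 2150 in the vehicles.

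Run code bears on these values. From the median of its run, Telmisartan lay -0.92 for Vip, -1.02 for Tac2 and -0.82 for Npas1 on the log2 scale. Irbesartan lay -0.45, -0.52 and -0.35, and Losartan -0.14, -0.22 and -0.47. Each of the 9 distances was below 0. These genes were named with every blocker below the vehicle mean, so the shared sign is not separate support. Counted from the highest, Telmisartan ranked 31, 32 and 30 of 32 libraries in its run for Vip, Tac2 and Npas1. Irbesartan ranked 24, 27 and 24 of 32, and Losartan 7, 6 and 6 of 8. The distances of Irbesartan were smaller than its distance from the vehicle mean. Those of Telmisartan were larger than its differences from the vehicles, -0.81, -0.74 and -0.66. Losartan differed from the vehicles by -0.25, -0.14 and -0.15, so its run distance was smaller for Vip and larger for Tac2 and Npas1. Vehicle 4, of the run of Irbesartan, had 32 CPM of Vip.

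**Figure D3:**
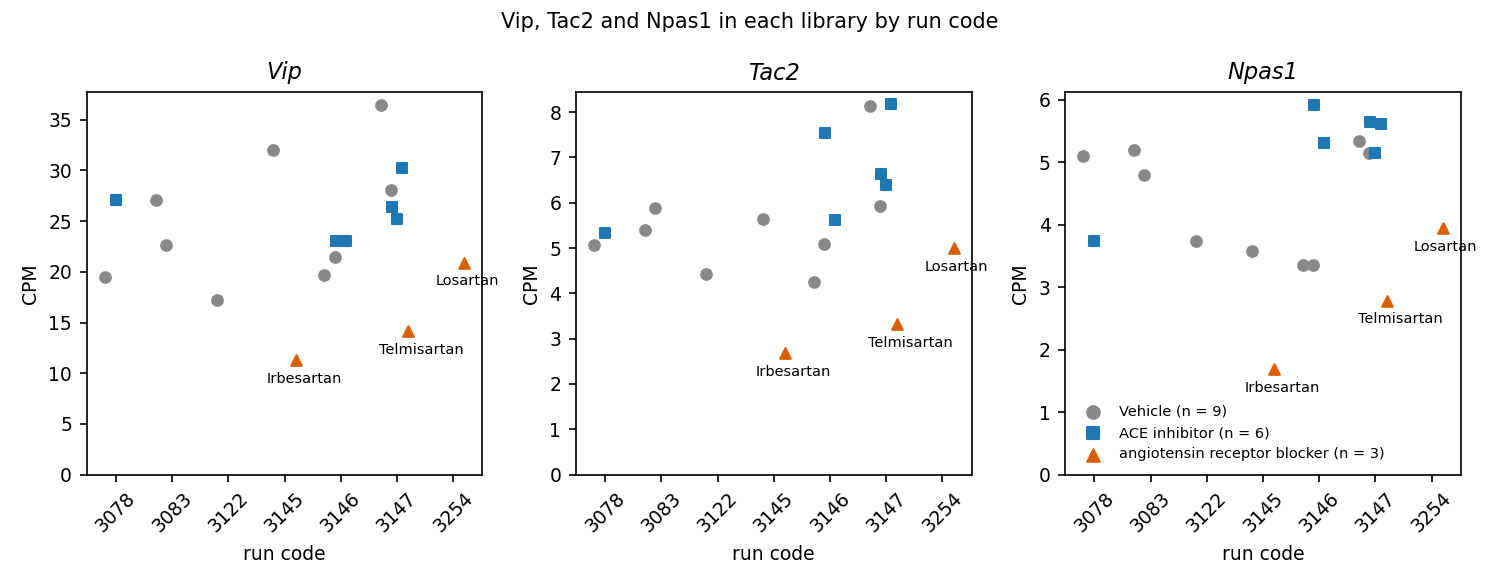
CPM of Vip, Tac2 and Npas1 in each library, by run code and group. In run HI.3147 Telmisartan (Vip 14.2, Tac2 3.3, Npas1 2.79 CPM) lies below all 3 ACE inhibitors and both vehicles of that run.

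Compared with each other, the classes had 0 genes past the threshold (0%) and 0 by DESeq2. At an unadjusted p under 0.05, 965 genes were higher with the ACE inhibitors (6.4%) and 862 lower (5.71%), more than in either comparison with vehicle. The lowest adjusted p was 0.361 by edgeR, the median reach of the intervals 0.233, and 86.7% of the intervals lay within 1 log2 unit of 0. Tac2 had the lowest unadjusted p of the named genes that were higher with the ACE inhibitors, with a log2 difference of 0.85 ± 0.21 and no overlap between 5.33 to 8.17 CPM and 2.69 to 4.99. Npas1 differed by 0.90 and Vip by 0.74. The nucleoside diphosphate kinase gene Nme1 differed by 0.18, and Slc35d3, a transporter-like protein of striatal neurons, by 0.40. On the side of the blockers were Gm20342 (-0.53), Gpt (-0.34), Utp14b (-0.56), the scaffold gene Mpp6 (-0.23) and Acrbp (-0.50). Irbesartan lay below its run median for Gm20342, by -0.194, and for Acrbp, by -0.242, at ranks 30 and 31 of 32 from the highest. The value for Acrbp was -0.295 without Telmisartan and that for Mpp6 -0.149 without Irbesartan. Only 1 run code held both classes and vehicles.

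The lists of genes that respond to angiotensin II or act downstream of it are described next by their counts and medians. None of their members passed in any class comparison. Of 22 genes known to be induced by angiotensin II in vessels, heart or kidney, 20 were tested. Against vehicle 18 of them were below 0 with the ACE inhibitors (median -0.35) and 13 with the blockers (median -0.15). Over all genes tested the medians were -0.005 and -0.00018. The mean log2 CPM of 12 of the genes, from the vehicle mean, was -0.845 to -0.224 with the ACE inhibitors. The vehicles spanned -0.479 to 0.637. From the run medians the ranges were -0.424 to -0.0641 and -0.417 to 0.619, so these groups overlapped on both scales. The genes with the lowest p with the ACE inhibitors were the collagens Col1a1 (-1.36 ± 0.43) and Col3a1 (-1.26 ± 0.45), and the adhesion molecule Icam1 (-0.92). Icam1 had 0.551 to 4.05 CPM in the vehicles (median 0.962). The 2 collagens are made by fibroblasts, and Col1a1 is also 1 of the 5 fibroblast markers, of which 3 were below 0 (median -0.40). Their summed level was 166 to 213 CPM with the ACE inhibitors and 139 to 251 in the vehicles. Most of that sum was Pdgfra, also listed here as an oligodendrocyte lineage marker, at 137 to 190 and 114 to 192 CPM. From the vehicle mean, the mean log2 CPM of the 5 markers was -0.997 to 0.0256 with the ACE inhibitors. The vehicles spanned -0.876 to 0.804. The part of fibroblast number in these values was not tested. With the blockers the growth factor gene Ctgf differed by -0.65 and Tgfb1 by -0.62.

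The 11 tested genes of mineralocorticoid and sodium handling had medians of 0.04 and -0.12 against vehicle. Nedd4l, a ubiquitin ligase of sodium channels, differed by -0.14 with the blockers. Of 20 vasoactive peptides and receptors 16 were tested, with medians of 0.02 and -0.07. Nos3, the endothelial nitric oxide synthase gene, differed by 0.35 ± 0.12 with the ACE inhibitors, and the neuropeptide Y receptor gene Npy1r by -0.38 with the blockers.

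PPAR target genes were included because of Telmisartan. The 16 tested had a median of -0.10 with the ACE inhibitors and 0.32 with the blockers, and 12 of 16 lay lower with the ACE inhibitors than with the blockers. The kinase gene Pdk4, which restrains glucose oxidation, differed by 0.51 ± 0.24 with the blockers. Angptl4, an inhibitor of lipoprotein lipase, differed by -1.43 and the lipid droplet gene Plin4 by -1.15 between ACE inhibitors and blockers. The mean log2 CPM of the list, from the run median, was 0.23 for Telmisartan, 0.19 for Losartan and 0.22 for Irbesartan, and -0.30 to 0.02 for the ACE inhibitors. The vehicles spanned -0.29 to 0.18 on this scale, and the 3 blockers lay just above the highest of them. Trandolapril, an ACE inhibitor not counted in the class here, was at 0.24 on the same scale, above the 3 blockers. A score this high was therefore not limited to the blockers. From the vehicle mean, Losartan was at 0.00844, Telmisartan at 0.236 and Irbesartan at 0.533, against -0.341 to 0.31 in the vehicles. On that scale Losartan and Telmisartan were inside the vehicle range. The astrocyte markers lay in the same direction, with 7 of 8 above 0 for the blockers (median 0.20) and 7 of 8 below 0 for the ACE inhibitors (-0.16). Their summed level was 5480 to 6560 CPM with the ACE inhibitors and 5880 to 7470 with the blockers. Their part in the PPAR result was not tested.

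Broader programs varied widely between libraries of 1 group. The 25 activity-regulated genes had a median of -0.00138 with the ACE inhibitors and -0.94 with the blockers, 24 of 25 below 0. Nr4a1 differed by -1.45 ± 0.74, Egr4 by -1.01 and Egr1 by -0.77, all early-response transcription factors. The vehicles themselves spanned -1.20 to 1.21 in the score of this list, and the blockers lay at -0.27 (Losartan), -0.68 (Telmisartan) and -1.31 (Irbesartan). From the run medians the same 3 were at -0.96, -0.30 and -0.02. Irbesartan, the lowest against the vehicle mean, was therefore at the middle of its run, and vehicle 4 of that run had -1.20. The ACE inhibitors ran from -1.01 (Perindopril) to 1.48 (Lisinopril).

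All 12 hypoxia-response genes were below 0 with the blockers (median -0.46), as were 11 of 12 genes of cholesterol synthesis (-0.52), with Idi1 at -0.70 ± 0.34. The mean over 11 of the hypoxia genes, from the vehicle mean, was -1.54 for Irbesartan, -0.249 for Telmisartan and 0.191 for Losartan, against -1.39 to 0.788 in the vehicles. The mean over 10 of the cholesterol genes was -0.861 to -0.174 with the blockers and -0.712 to 0.664 in the vehicles. With the ACE inhibitors the medians of these lists were 0.07 and 0.01. The 14 targets of the oxidative stress factor NRF2 were all below 0 with the ACE inhibitors (median -0.18), Gsr, which regenerates glutathione, by -0.18 ± 0.062 and Srxn1 by -0.22. The mean log2 CPM of the 14, from the vehicle mean, was -0.265 to -0.013 with the ACE inhibitors. The vehicles spanned -0.254 to 0.403, so the groups overlapped. All 8 neuron markers were above 0 with the ACE inhibitors (median 0.09) and below 0 with the blockers (-0.20), with summed levels of 5920 to 7070 and 5120 to 5950 CPM. The lowest blocker was below the lowest vehicle (5230 CPM), and the ACE inhibitors were within the vehicle range. The part of the cell makeup in these lists was not tested.

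**Figure D4:**
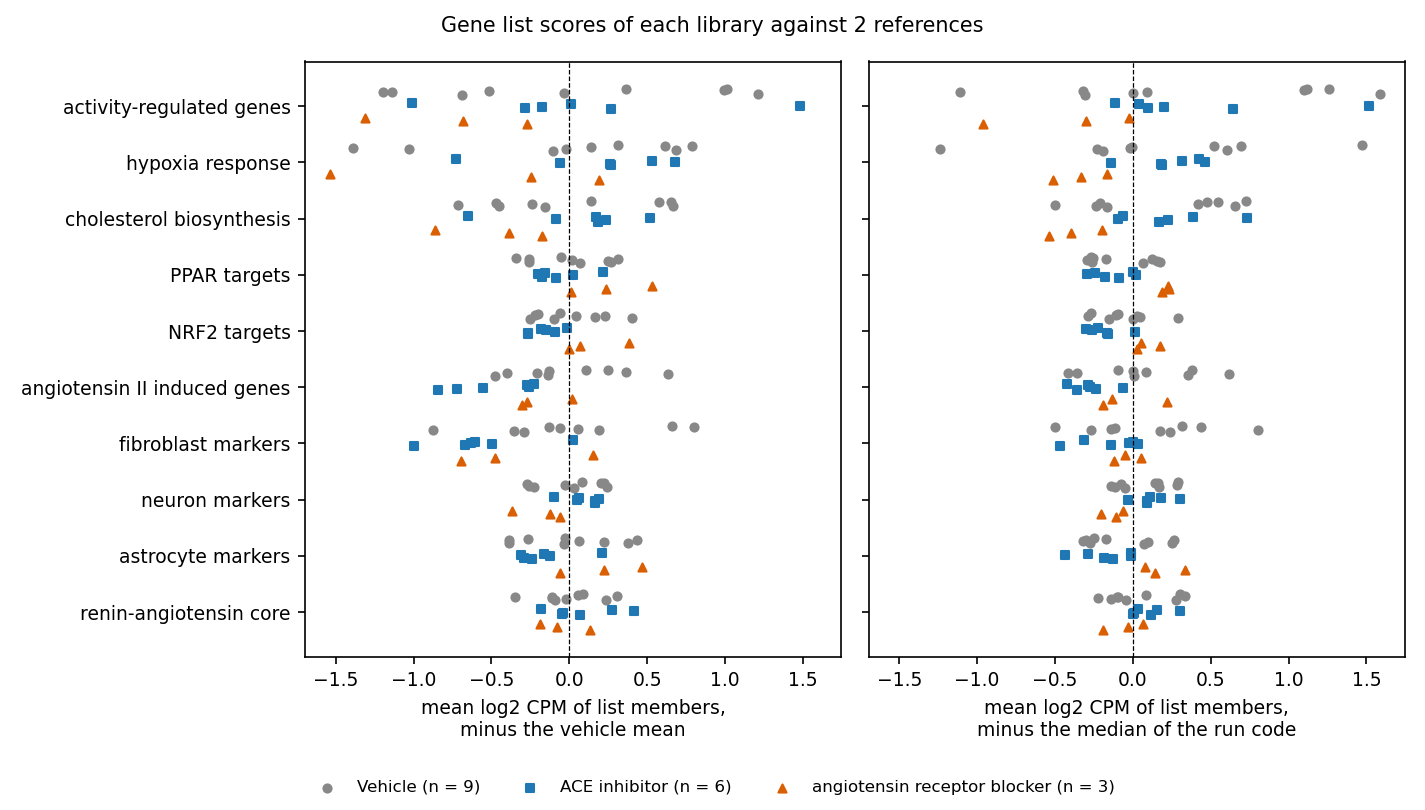
Mean log2 CPM of the members of 10 gene lists in each library, minus the vehicle mean (left) and minus the median of the library's run code (right). The 9 vehicles span -1.20 to 1.21 for activity-regulated genes on the left, and the 3 blockers at -0.27 to -1.31 are spread over -0.96 to -0.02 on the right.

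Taken 1 drug at a time against the 9 vehicles, where the lone library is assumed to vary like the vehicles, no drug had a gene past the threshold among 15569 tested by edgeR (0% for each). At an unadjusted p under 0.05 Captopril had 99 genes (0.636%), Fosinopril 179 (1.1%), Enalapril 349 (2.24%), Lisinopril 309 (1.98%), Ramipril 173 (1.1%) and Perindopril 164 (1.05%). Losartan had 112 (0.719%), Telmisartan 145 (0.931%) and Irbesartan 678 (4.35%). DESeq2 also called 0 for 8 of the drugs, and 3 genes for Enalapril: Fubp1 (log2 difference -0.29), Selt (-0.35) and Mbnl1 (-0.28). On simulated data for Captopril the edgeR test recovered 55.2% of genes given a log2 change of 1 and 7.46% of those given 0.5. Whether these rates hold for the real libraries was not tested. The intervals lay within 1 log2 unit of 0 for 69.3% (Irbesartan) to 76.5% (Captopril) of genes.

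The named genes that were higher with Lisinopril were Atf3 and Inhba. Atf3, a stress-induced transcription factor, had 75 CPM with Lisinopril against 4.59 to 23.5 in the vehicles (log2 difference 2.43 ± 0.58). The lowest adjusted p of any gene for this drug was 0.993 by edgeR. Atf3 was the highest of the 23 libraries of its run, 2.37 above their median. Inhba, which encodes a subunit of activin, had 48.4 CPM against 1.02 to 23.2, and was also the highest of its run, 3.07 above the median. Enalapril, in the same run and of the same class, had its highest named genes in Rn18s-rs5 (168 CPM) and Smtnl2 (13 CPM), both above all vehicles. Rn18s-rs5 is ribosomal RNA related, and its count is uncertain. With Perindopril, the activity-dependent transcription factor Npas4 had 7.75 CPM against 8.71 to 147 in the vehicles and Atf3 3.39, so Perindopril and Lisinopril lay at opposite sides of the vehicles for Atf3.

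Irbesartan had the most genes outside the vehicle range, 1952 above (17.6% of 11100 genes with a vehicle mean of 5 CPM or more) and 1786 below (16.1%). Abca1, the cholesterol exporter, had 1296 CPM against 188 to 725, and was the highest of the 32 libraries of its run, 0.87 above the median. The hexokinase gene Hk2 had 1.63 CPM against 2.66 to 70.3 (log2 difference -4.45 ± 1.80), but only -1.05 from its run median. The lactate transporter gene Slc16a3 had 0.251 CPM against 0.463 to 15.6, and lay 0.06 above its run median. The size of these 2 differences therefore depended on which libraries Irbesartan was set against.

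With Ramipril, Ogn, a matrix proteoglycan of fibroblasts, had 1.07 CPM against 2.42 to 18.1, and Apod, an apolipoprotein, 1.75 against 4.21 to 23.7. Both were the lowest of the 32 libraries of their run. Fosinopril had 1.2 CPM of Ogn. Losartan had 4051 CPM of Lars2, a mitochondrial tRNA synthetase gene, against 77.2 to 2500, the highest of its 8 run libraries. It also had 2891 CPM of Mir6236 against 39.98 to 1773, and 269 CPM of the ribosomal RNA related Rn18s-rs5 against 2.9 to 138. Both were the highest of its run, both counts are uncertain, and their part in the Lars2 value was not tested. With Telmisartan the cortical transcription factor gene Eomes had 11 CPM against 3.58 to 9.63, and Cyp26b1, which degrades retinoic acid, 3.5 against 4.1 to 17.3. Captopril had the fewest genes at an unadjusted p under 0.05, and 362 genes lay above and 374 below the vehicle range, and Col1a2 had 4.21 CPM against 5.51 to 18.9.

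Over 9779 genes, the SD of a library's log2 distances from its run median was 0.0629 for Captopril, the smallest of all libraries of the screen. It was 0.0862 for Irbesartan, 0.112 for Perindopril, 0.124 for Ramipril, 0.127 for Fosinopril, 0.157 for Losartan, 0.158 for Telmisartan, 0.169 for Enalapril and 0.243 for Lisinopril. The vehicles had 0.073 to 0.258, so no member lay farther from its run than the farthest vehicle. Irbesartan, with the most genes outside the vehicle range, was the second closest of the 9 drugs to its own run.

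**Figure D5:**
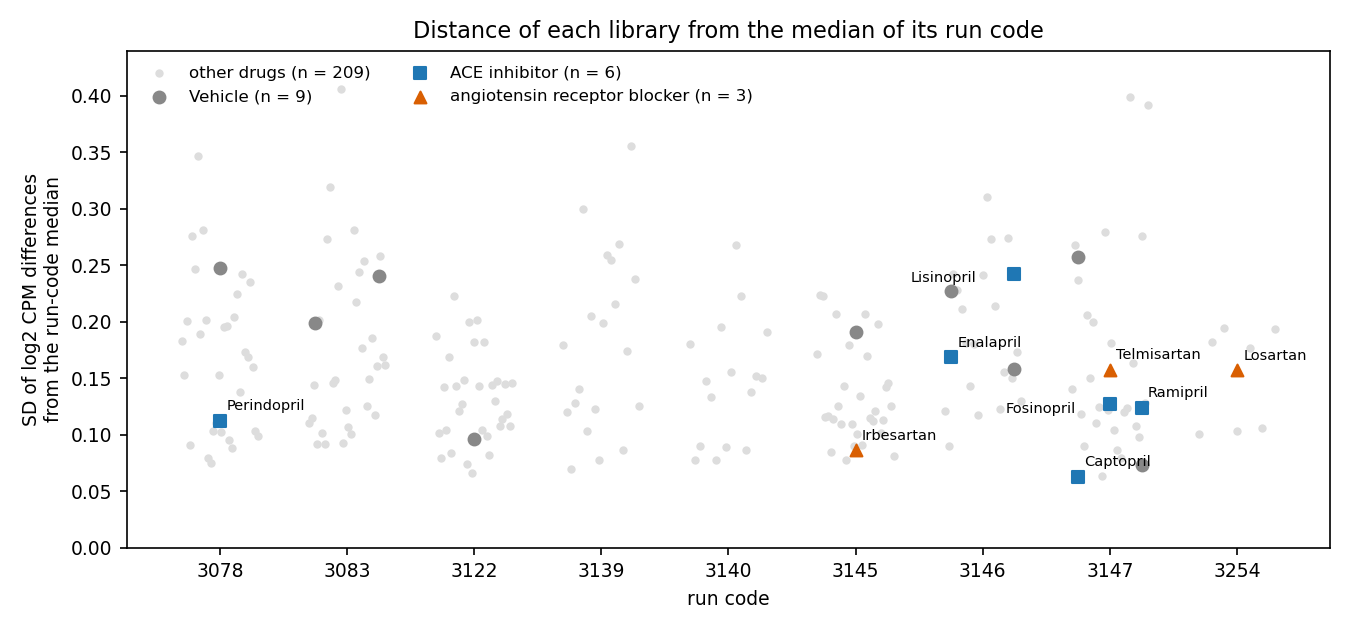
SD over genes of the log2 CPM differences of each library from the median of its run code, for all libraries of the screen by run code. Captopril (0.0629) is the lowest of all, Lisinopril (0.243) the highest of the 9 drugs, and the vehicles span 0.073 to 0.258.

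The 9 drugs form 36 pairs, tested with p-values adjusted over all 560484 gene and pair combinations. No combination passed by edgeR (0%). The count at an unadjusted p under 0.05 ran from 40, for Fosinopril against Ramipril, to 1196, for Fosinopril against Irbesartan. DESeq2 called 3, each with an adjusted p of 0.0301 over all pairs: Dnajb4 in Enalapril against Lisinopril, Fubp1 in Enalapril against Telmisartan and Leng8 in Ramipril against Telmisartan. For 7 pairs both libraries shared a run code. The SD over genes of the log2 difference was 0.0832 to 0.265 there (median 0.156) and 0.141 to 0.462 in the other 29 (median 0.225). Pairs from different runs cannot be told apart from their runs, and only those within a run are described below. The median reach of a pair's 95% interval to each side was 0.552.

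Captopril, the thiol, Fosinopril, the phosphinate prodrug, and Ramipril, a carboxylate prodrug, shared a run. Captopril and Fosinopril differed at an unadjusted p under 0.05 in 77 genes, Captopril and Ramipril in 85, and Fosinopril and Ramipril in 40. Fblim1, an adaptor of cell adhesions, had 0.651 CPM with Captopril, 1.96 with Fosinopril and 1.91 with Ramipril, and 1.2 to 2.2 in the vehicles. The difference between Captopril and Fosinopril was -1.58 with a 95% interval of -2.60 to -0.56. Leng8 had 206 CPM with Captopril and 149 with Ramipril (0.48, interval 0.26 to 0.70), outside the 170 to 193 of the vehicles on either side. These intervals leave out 0, but none of the edgeR adjusted p-values passed. Adjusted within a pair alone, DESeq2 did make calls in some pairs. Captopril against Ramipril and Enalapril against Lisinopril were among them.

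Enalapril, a prodrug, and Lisinopril, which acts as given, are both carboxylates and shared a run. They differed in 418 genes at an unadjusted p under 0.05, the most of the pairs within a run. Dnajb4, a heat shock co-chaperone, had 58.3 CPM with Enalapril and 86 with Lisinopril, and 63.6 to 70 in the vehicles (log2 difference -0.56, interval -0.78 to -0.35). The imprinted gene Mest had 90.4 and 139.5 CPM against 99.7 to 118 in the vehicles (-0.63, interval -0.90 to -0.35). Both drugs lay outside the vehicle range, on opposite sides, for each of these genes. The transporter gene Slc16a14 had 40.7 and 30.8 CPM (0.40) and the palmitoyltransferase gene Zdhhc12 6.3 and 4.0 (0.67).

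Telmisartan was the 1 blocker that shared a run with ACE inhibitors. It differed from Captopril in 96 genes, from Fosinopril in 160 and from Ramipril in 187 at an unadjusted p under 0.05. Tac2 was 8.17 CPM with Ramipril and 3.3 with Telmisartan, a log2 difference of 1.30 with a 95% interval of 0.48 to 2.1. Leng8 had 149 and 214 CPM, a difference of -0.52 with an interval of -0.74 to -0.30. Drd1, the dopamine D1 receptor gene, had 12.7 CPM with Captopril and 8.64 with Telmisartan, against 9.44 to 11.9 in the vehicles (0.56, interval 0.19 to 0.94).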

How the data were processed

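RNA was measured in 1 library for each of 218 drugs and in 9 vehicle libraries, and each library's group is the agent that its label gives. The deposited counts are the authors' whole reads per Ensembl gene, not normalized. The deposited RPKM values are the authors' counts per kilobase of deposited gene length and M counted reads, and were used for levels between genes only. The build mm10 and the programs edgeR 3.10.5, limma, Subread 1.4.6 and STAR 2.4.0 were used per the submitters' processing notes, which assign none to a step. Counting settings are not given in the sources used here. Of 31689 genes 31328 were found in GENCODE vM21, from which mm10 positions were taken.

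Counts were analysed in R 4.3.3. The test was edgeR 4.0.16 (TMM scaling, filterByExpr, quasi-likelihood F test) with Benjamini-Hochberg adjustment over all genes tested, at a threshold of 0.05. The 18 libraries formed 3 groups for the class comparisons, and 9 single drugs and the vehicles in a fit for drugs and for pairs. SE values come from the F statistic. List scores are means of log2 CPM (prior count 1) over members with a mean of 1 CPM or more. Where no gene passed, the genes named for a class comparison were the 5 with the lowest p in each direction, at a mean of 1 CPM or more and with every library of the drug class on the same side of the comparator's mean. For a single drug they were genes outside the vehicle range at a vehicle mean of 5 CPM or more, 2 in each direction by log2 fold change. For pairs within a run they were the 2 with the lowest p in each direction. Members of a list were named by their lowest p. Some genes that these rules name are not reported here. The members, lists and rules were chosen with earlier results of these data known.

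Depth was 31.4 to 47 M counts a library. Among 153 pairs of the 18 libraries none was nearly identical (lowest chi-square per gene 7.48 over 12752 genes). The scripts were tested on simulated counts. Alternatives were other size factors, DESeq2 1.42.0, no filter, run code as a term, limma 3.58.1 over all libraries, fewer groups, Trandolapril (an ACE inhibitor outside the 9) added to its class, and each library left out. Labels give groups no shared replicate numbers.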

Additional observations from a re-analysis of the deposited data

Results flagged for a closer look

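In 114 groups of values, each from the 6 ACE inhibitors or the 9 vehicles, 8 had 1 library apart from the rest. The gap was above the 95% critical value of Dixon's test. Chance alone nominally gives about 1 in 20 such groups, and the groups reuse the same libraries. The blockers were not tested in this way. Perindopril accounted for 3 of the 8. Its Agtrap, at 26.8 CPM, was the highest of the ACE inhibitors (next 20.4), its Npas1, at 3.74 CPM, the lowest (next 5.1), and its astrocyte marker score, at 0.209, the highest (next -0.121). From its run median Perindopril lay at -0.049 for Agtrap (rank 20 of 32 from the highest), 0.45 for Npas1 (rank 10) and -0.0104 for the astrocyte score, so Agtrap and the score were not high, and Npas1 was not low, within its run. Lisinopril had the highest Slc5a3 of its class, 63.5 CPM (next 49.6), and the highest Mc4r, 2.44 CPM (next 1.93). Fosinopril had the highest 2810004N23Rik, 16.8 CPM (next 15.9). Among the vehicles, vehicle 8 had the highest Tac2, 8.13 CPM (next 5.93), and vehicle 3 the highest Utp14b, 63.1 CPM (next 46.4).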

How the results depend on the processing

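The 3 class comparisons had 0 genes past the threshold under each alternative run for all 3. These were other size factors, DESeq2, no filter, run code as a term, both limma fits and 2 groups only. Leaving out each of the 18 libraries in turn also gave 0. The limma fit with the other drugs as 1 group was chosen after seeing the data. Shared run codes only and Trandolapril added were run for ACE inhibitors against vehicle alone, also with 0 genes. With run code as a term, Losartan, the only library of the 18 in its run, adds nothing to the blocker comparisons. The lowest adjusted p with a library left out was 0.226 (edgeR, ACE inhibitors against blockers). The single drugs and the pairs also had 0 calls with other size factors and without the filter, while DESeq2 gave 3 for Enalapril and 3 over all pairs. Of the values of single drugs against the vehicle mean, 35 shifted by more than 1 SD of the vehicles and 100 did not with the run-code median as the reference, and 10 and 22 with the vehicles of the same run code. Some differences reversed sign; the cause was not tested. Against vehicle with the ACE inhibitors, Mme, Tac1 and Bdkrb2 were -0.0483, -0.0558 and 0.0317 with run code as a term, -0.0491, -0.0566 and 0.117 in limma with each drug its own group. Mme and Tac1 were -0.0224 and -0.00389 in limma with other drugs as 1 group, -0.0505 and -0.0619 in shared runs. With Trandolapril added, Mas1, Mme and Tac1 were -0.0154, -0.0156 and -0.0286. Agt between the classes was -0.285 with run code as a term and -0.241 in limma with each drug its own group. With 1 library left out, the ranges for ACE inhibitors against vehicle were -0.118 to 0.145 (Mas1), -0.031 to 0.0407 (Mme) and -0.0528 to 0.0793 (Tac1). For blockers against vehicle they were -0.251 to 0.0115 (Ace) and -0.154 to 0.012 (Mme), and between the classes -0.0584 to 0.265 (Agt), -1.41 to 0.378 (Anpep) and -0.00692 to 0.163 (Mme). No paired analysis was possible because the groups share no replicate numbers in the labels; the fits with run code as a term set libraries side by side by run instead.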

Other observations

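Trandolapril, an ACE inhibitor whose label falls outside the 9 drugs, shared run code HI.3083 with vehicles 6 and 7. It had 0 genes past the threshold among 15577 by edgeR and 161 at an unadjusted p under 0.05. Its Ace level was 9.9 CPM, within the vehicle range. Its scores from the run median were 0.24 for the PPAR targets and -0.74 for the hypoxia response, where the 6 ACE inhibitors spanned -0.30 to 0.02 and -0.14 to 0.47. The receptor blockers spanned 0.188 to 0.232 and -0.511 to -0.167. Trandolapril thus lay outside the range of its own class for both lists, on the side of the blockers and beyond them. The vehicles spanned -0.292 to 0.175 for the PPAR targets and -1.24 to 1.47 for the hypoxia response. Its hypoxia score was therefore well within the vehicles, as were those of both classes.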
